A study of Gallus gallus with 24 samples.

Results

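Hepatic transcript abundance of 3-wk-old chickens was compared between the fat line (FL) and the lean line (LL) on 4 two-colour cDNA arrays, out of 24 arrays that cover 6 ages from 1 to 11 wk. The arrays were taken by their label, as the 4 hybridizations of liver RNA from birds of 3 wk, and no measured value entered the choice. FL and LL birds came from divergent selection on abdominal fat weight over several generations and were kept under a standard broiler regime, with no further treatment. Each array held liver RNA of an FL bird and of an LL bird of the same age, and each genotype was represented by 4 birds at 3 wk. The FL sample was in channel 1 (Alexa Fluor 555) on replicates 1 and 3 and in channel 2 (Alexa Fluor 647) on replicates 2 and 4, and the LL sample was in the other channel. With whole liver as the tissue, fewer cells of a type and less RNA per cell cannot be told apart, and a ratio gives no absolute level by which the tissue label could be checked.

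The sources used here do not state the direction of the deposited log ratio, its log base, or whether the columns of swapped arrays had been turned before deposit. The values were therefore read in 2 ways. In the first reading each column was turned by its dye labels, so that positive values mean more transcript in FL than in LL on the assumption that channel 2 was divided by channel 1. In the second reading the columns were averaged as deposited, which gives the ratio of the lines only if the columns had already been turned, and otherwise gives what does not follow the line labels, such as an unequal response of a cDNA to the dyes. Both are given as log2 values with their sign, and neither is called higher in FL or in LL.

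In birds the liver is the main site of fatty acid synthesis, and the lipid is exported to adipose tissue in lipoproteins. Hepatocytes also secrete most plasma proteins, among them the clotting factors, complement components, carriers and protease inhibitors, and they form glucose, urate and bile acids. Resident macrophages, endothelial cells and stellate cells make up most of the rest of the organ.

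Between 18963 and 18969 of 19200 spots had a value on each of the 4 arrays, and the test covered 14855 features, namely 6385 named genes and 8470 unnamed cDNA spots. All 4 columns were centred, with medians from 0.01 to 0.03. Replicate 3 was the widest, with a standard deviation over spots of 0.393, against 0.208, 0.218 and 0.269 on replicates 1, 2 and 4. The columns resembled each other whatever their dye orientation. Across spots, which are not independent replicates, the 2 pairs of equal orientation had r = 0.37 (replicates 1 and 3) and r = 0.71 (replicates 2 and 4). The 4 pairs of opposite orientation had r = 0.42, 0.43, 0.68 and 0.70 as deposited, and thus the same values with a negative sign once turned. Spots that share an accession in the annotation also varied within an array. The 93 spots annotated as STUB1 had standard deviations of 0.161, 0.191, 0.322 and 0.244 on replicates 1 to 4. The 28 spots annotated as DIO1 had 0.166, 0.237, 0.443 and 0.267. Whether spots of a shared accession hold the same cDNA was not tested, so these values are not a measure of spot error.

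Turned by dye, no feature passed the adjusted test at 3 wk, which does not show that FL and LL were alike. In the limma fit 0 of 14855 features (0%) passed an adjusted p of 0.05, and the smallest adjusted p was 0.267. Before adjustment 170 features (1.14%) had p under 0.05, and 815 of 14848 features with 4 values (5.49%) had the same sign on all 4 arrays. Evenly spread p-values would put a share of about 0.05 under that limit, so the 1.14% is low. It was 306 features with the 3 wk arrays fitted alone and 365 with array weights. The cause of the low share was not tested. Mean ratios ran from -1.47 to 0.99, with a standard deviation over features of 0.08. The median 95% confidence interval was ± 0.16 log2 units (1.12-fold), and for 97.0% of features the interval lay within 1.5-fold in either direction. This half-width applies to single features before adjustment and is not the smallest difference that the adjusted test could call. Larger mean ratios also failed the correction, such as -0.69 for CYP2C18 and 0.64 for FURIN. The number of arrays limits the precision.

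The named gene of smallest p was GNLY, which encodes a granulysin-like peptide of cytotoxic lymphocytes. Its turned ratios were 0.80, 0.25, 0.61 and 0.08 on replicates 1 to 4, with a mean of 0.44 ± 0.10 (SE, n = 4 arrays) and an unadjusted p of 3.4e-04 in limma. All 4 arrays were positive, and the 2 with FL in channel 1 were the higher ones. CD74, the invariant chain that accompanies MHC class II, had 0.58, 0.05, 0.59 and 0.47, with a mean of 0.42 ± 0.11. The gene was represented by 5 spots, whose means over the arrays ranged from 0.06 to 0.91. The adjusted p was 1.00 for each gene named from a turned value at 3 wk, since none passed the correction.

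AGT, the angiotensin precursor made by liver, had turned ratios of 0.67, -0.00, 1.93 and -0.10, with a mean of 0.62 ± 0.17. ENPEP, an aminopeptidase that cleaves angiotensin II, had 0.50, -0.22, 1.70 and 0.22, with a mean of 0.55 ± 0.16. FURIN, a convertase that activates many secreted proproteins, had 0.35, -0.02, 1.97 and 0.27, with a mean of 0.64 ± 0.17. In all 3 genes replicate 3 was far above the others, and the smallest of the 4 values was near 0 or negative. When an array was left out, the fit gave the remaining array of its dye orientation as much weight as both arrays of the other orientation, and that lone array was assumed to vary like the rest. Without replicate 1 the fitted value of FURIN was 1.05 (limma adjusted p = 0.0016), which rests on replicate 3 as the lone array with FL in channel 1, and the plain mean of the remaining arrays was 0.74. Without replicate 3 the fitted value was 0.24. The 2 spots of FURIN differed, with means of 1.24 and 0.04, whereas those of AGT had 0.76 and 0.49.

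CYP2C18, a cytochrome P450 of drug and fatty acid metabolism, was the most even of the 10. It had -0.68, -0.64, -0.72 and -0.74, with a mean of -0.69 ± 0.22 and an unadjusted p of 0.0064. The SE of the fit is wide because the spread is shared with the other ages, where the gene varied more. FYTTD1L, related to an mRNA export factor, had -0.25, -0.21, -0.03 and -0.18, also negative on 4 of 4 arrays. SLC13A3, a transporter of dicarboxylates, and SMAD3, which transmits TGF-beta signals, had means of -0.25 ± 0.07 and -0.25 ± 0.08 and were negative on 3 of 4 arrays. SERPINF1, the secreted pigment epithelium-derived factor, had a mean of 0.31 ± 0.10 from 0.76 and 1.36 on the arrays with FL in channel 1 and -0.36 and -0.51 on the others. Among unnamed spots, 1 had 0.82, 0.38, 1.35 and 0.99 on replicates 1 to 4, with a mean of 0.88 ± 0.15 and an unadjusted p of 1.8e-05, and its adjusted p of 0.267 was the smallest of all features.

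**Figure D1:**
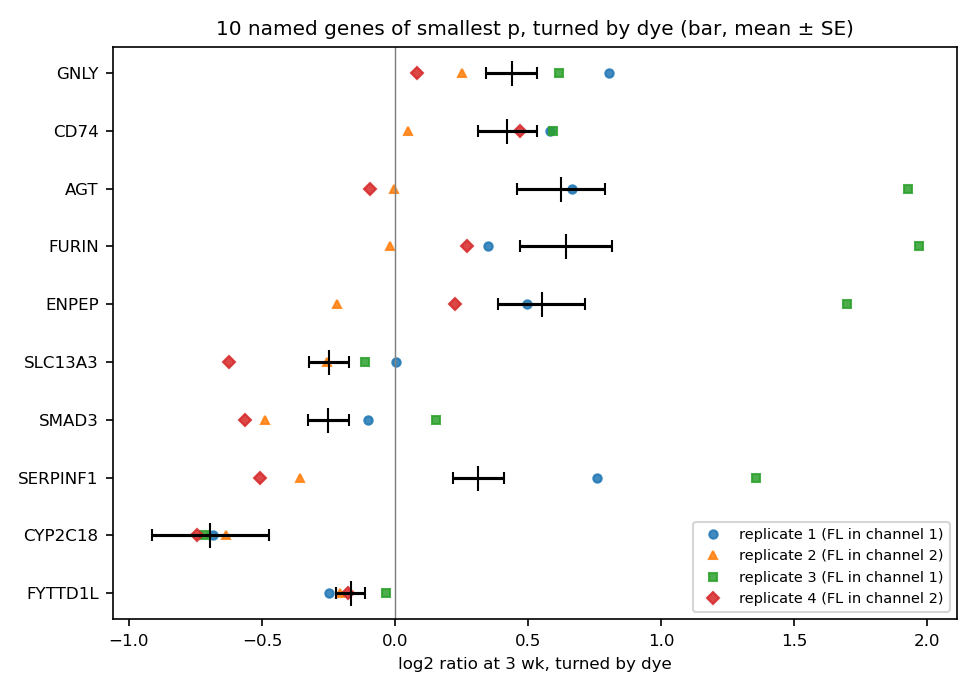
Turned log2 ratios at 3 wk (x axis) of the 10 named genes of smallest p (y axis), with a symbol for each array and a bar for the limma mean ± SE (n = 4). CYP2C18 lies between -0.74 and -0.64 on all arrays, GNLY and CD74 are positive on all 4, and AGT, FURIN and ENPEP reach 1.70 or more on replicate 3 alone.

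Genes of fatty acid synthesis had turned ratios close to 0. Of 16 measured members 5 were positive, with a median of -0.05, against a median of -0.00 over all features, of which 46.9% were positive. The sign of this median depended on single arrays, with 0.04 and 9 positive members without replicate 1 and 0.00 and 8 positive members without replicate 4. FASN, the fatty acid synthase, had -0.14, -0.04, 0.63 and -0.75, with a mean of -0.07 ± 0.24 (SE, n = 4 arrays). ACACA, the acetyl-CoA carboxylase that makes its substrate, had a mean of -0.23 ± 0.19, and THRSP, a regulator of lipogenesis, -0.23 ± 0.16. SCD, the stearoyl-CoA desaturase, had -0.09 ± 0.10, ACLY, which supplies cytosolic acetyl-CoA, -0.05 ± 0.14, and SREBF1, a transcription factor of the pathway, -0.00 ± 0.07. For FASN the arrays spanned both signs, so that its interval is wide, whereas SREBF1 was held more tightly. PNPLA3, a lipase of lipid droplets, was the 1 member with an unadjusted p under 0.05, with -0.32, 0.03, -0.31 and -0.03 and a mean of -0.16 ± 0.07.

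In glycerolipid synthesis, of which 4 of 10 members were positive, DGAT2, which completes triglyceride formation, had -0.06 ± 0.07, and GPAM, which starts it, -0.17 ± 0.33. MVD of the mevalonate pathway had 0.12 ± 0.08, DECR1 of fatty acid oxidation -0.12 ± 0.08, and NR1H4, the bile acid receptor FXR, 0.23 ± 0.12. The fatty acid binding protein of liver, FABP1, had turned ratios of -0.02, -0.20, 1.40 and 0.37, and its mean of 0.39 ± 0.39 was no larger than its error. ABCA1, which loads lipid onto apolipoprotein A-I, had 0.08 ± 0.08. The lists of glycerolipid synthesis, cholesterol synthesis, fatty acid oxidation and lipoprotein transport had medians from -0.02 to 0.01.

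Of 24 genes of antigen presentation and macrophages, 18 had a positive turned ratio (75%, against 46.9% of all features). Their median was 0.09, with a range from -0.54 to 0.42. CD74 was the 1 member with an unadjusted p under 0.05. A high positive share was not particular to antigen presentation and macrophages. It was 75% in coagulation, 74.2% in the proteasome and 81.8% in erythrocytes. BF1, a class I heavy chain, had 0.27 ± 0.17, B2M, its light chain, 0.18 ± 0.16, and C1QC, a chain of complement C1q made by macrophages, 0.25 ± 0.16. CSF1R, the receptor that macrophages need for survival, had -0.03 ± 0.06. The 5 named members do not represent the list, since all but CD74 were added for their known roles and the member at -0.54 is not among them. None of the 5 passed the correction. Among 15 genes of the interferon response 10 were positive, with a median of 0.03, and ZC3HAV1, an antiviral protein, had 0.18 ± 0.12. Of 3 measured lymphocyte genes RAC2 had the smallest p, with 0.09 ± 0.07.

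Other lists of liver functions had medians from -0.03 for xenobiotic metabolism to 0.07 for coagulation, and 0 of their members were called. The coagulation median was 0.21 without replicate 1 and -0.05, with 8 of 20 members positive, without replicate 3, and the acute phase median of 0.04 was 0.24 without replicate 1. FGB, the beta chain of fibrinogen, had widely spread ratios, with 0.53, -0.86, 3.06 and 0.04 on replicates 1 to 4 and a mean of 0.69 ± 0.30. C8A of the terminal complement complex had 0.51 ± 0.23, with 1.90 on replicate 3. CP, the copper-carrying ferroxidase ceruloplasmin, had 0.28 ± 0.11, XDH, which forms urate, 0.39 ± 0.16, and PSMB1, a proteasome subunit, 0.27 ± 0.10. In all 4 of the genes C8A, CP, XDH and PSMB1 the highest value was on replicate 3. ATP5B, the beta subunit of ATP synthase, had -1.73, -0.78, 0.86 and -0.75 with a mean of -0.60 ± 0.25, which came from 1 of its 2 spots (-1.19 and -0.01). Without replicate 3 the fitted value of ATP5B was -1.25 (limma adjusted p = 0.0012) and the plain mean -1.09, with replicate 1 as the lone array with FL in channel 1. Without replicate 1 the fitted value was 0.046 and the plain mean -0.22. CP had a fitted value of 0.55 (adjusted p = 0.026) and a plain mean of 0.25 without replicate 1, where replicate 3 was the lone array, and 0.01 and -0.10 without replicate 3.

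Smaller values were found elsewhere. TIMP2, an inhibitor of matrix proteases, had -0.21 ± 0.10, GBE1, which branches glycogen, -0.16 ± 0.10, the orphan nuclear receptor NR2F2 0.10 ± 0.06, the clock gene PER2 -0.10 ± 0.08, the chaperone HSPA2 0.09 ± 0.06, and RPL35 of the ribosome -0.08 ± 0.09. Markers of other cell types stayed within the same range, with HBBA of erythrocytes at 0.13 ± 0.09, VWF of endothelium at 0.10 ± 0.07, CPB1 of pancreas at 0.08 ± 0.06, TPM2 of muscle at 0.06 ± 0.06, SPP1, expressed in bile duct, at 0.02 ± 0.10 and PPARG of adipocytes at -0.08 ± 0.07. Each was the member of smallest p in its list. Positive were 9 of 11 erythrocyte, 7 of 14 endothelial, 2 of 6 pancreas, 4 of 12 muscle, 3 of 3 bile duct and 2 of 7 adipocyte genes. The medians of these lists were 0.02, -0.00, -0.03, -0.03, 0.02 and -0.06. RRM2, which dividing cells need to make deoxynucleotides, had 0.14 ± 0.07. The W-linked gene HINTW had -0.03 ± 0.09.

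As deposited, the same 4 columns held many values that exceeded the spread between arrays. Several plasma protein genes, among them CFI, ORM1 and APOH, and the enzymes HSD11B1B and PSPH stood among the most negative named genes, and FILIP1L, PLS3 and SCARA5 were the most positive. In limma 791 of 14855 features (5.32%) had an adjusted p under 0.05, of which 444 (2.99%) were positive and 347 (2.34%) negative. Before adjustment 3358 features (22.6%) had p under 0.05. A symbol was known for 391 of the calls, 710 reached 1.2-fold and 176 reached 1.5-fold. Of the 791, 783 had the same sign on 4 of 4 arrays, and over all features 6094 of 14848 (41.0%) did so. The count depended on single arrays, since 962 features were called without replicate 1, but 65 without replicate 2, 13 without replicate 3 and 21 without replicate 4. Of the 65 called genes that the naming rule took from this reading, UQCRFS1, SOD1 and SERPINF1 passed whichever single array was left out and OSBPL11 passed in 3 of the 4 omissions. Of the other 61, 53 passed in 1 or 2 omissions and 8 in none. Those 8 were C4, CCT8, CYP2C23a, DES, GSTA3, PSPH, TMEM123 and TTR. Replicate 3 held the largest of the 4 values in 513 of the 791 features. Without the 3 arrays of other ages that stood apart (7 wk replicate 1, 11 wk replicate 4 and 1 wk replicate 4), 2376 features were called, and all 791 were among them.

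**Figure D2:**
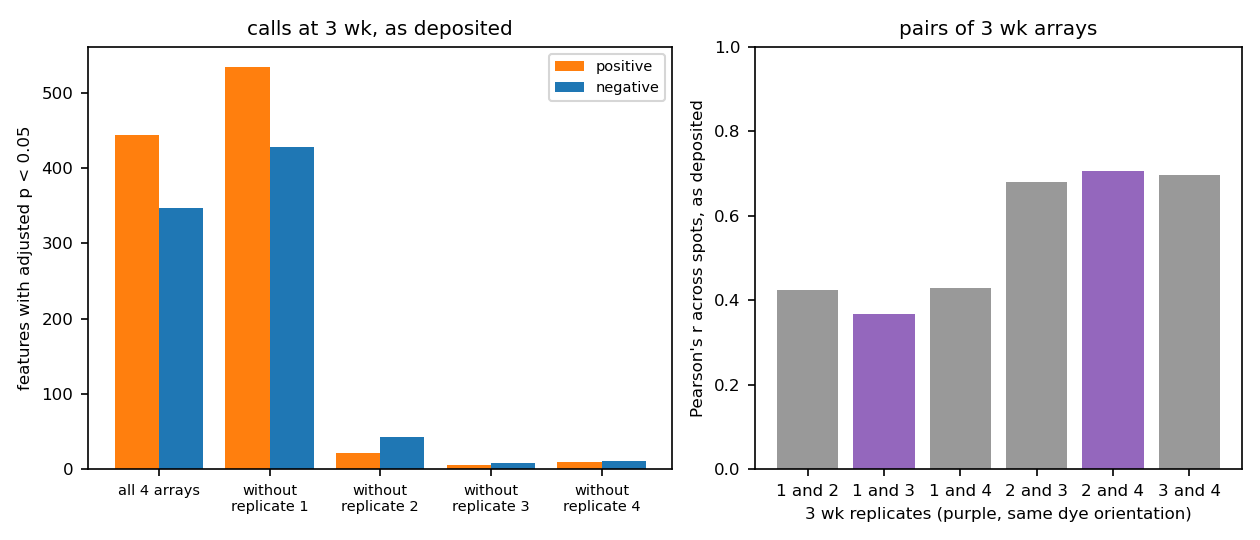
Left, number of features with a limma adjusted p under 0.05 at 3 wk as deposited (y axis), positive and negative, with all 4 arrays and without each (x axis). Right, Pearson's r across spots between the deposited columns of each pair of 3 wk arrays. The count is 791 with all arrays and 13 without replicate 3, and pairs of equal and of opposite dye orientation both have positive r.

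The most negative gene was HSD11B1B, a relative of the enzyme that regenerates active glucocorticoids in liver. Its deposited ratios were -1.65, -1.71, -2.25 and -0.68 on replicates 1 to 4, with a mean of -1.57 ± 0.27 (SE, n = 4 arrays, limma adjusted p = 0.0091). Replicate 4 was the array nearest to 0, and all 4 were negative. UQCRFS1, the Rieske iron-sulphur protein of respiratory complex III, had -0.62, -0.74, -0.90 and -0.78. Its mean of -0.76 ± 0.08 had the smallest adjusted p of all features, 4.0e-04.

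Plasma proteins secreted by hepatocytes had the lowest medians of all lists. Of 20 coagulation and fibrinolysis genes 16 were negative with a median of -0.45, of 21 acute phase and other plasma proteins 18 with a median of -0.45, and of 17 complement genes 12 with a median of -0.39, against a median of 0.01 over all features. Called negative were 6, 7 and 3 of them, and called positive 1, 1 and 0. In either direction 35%, 38.1% and 17.6% of the lists were called, against 5.32% of all features (2.34% negative and 2.99% positive). The medians of the coagulation list on replicates 1 to 4 were -0.15, -0.12, -0.90 and -0.18, those of the acute phase list -0.23, -0.28, -0.80 and -0.17, and those of the complement list -0.13, -0.22, -0.53 and -0.24. Each list was thus negative on every array and lowest on replicate 3. Without replicate 3 the medians were -0.25 for coagulation, -0.29 for acute phase and -0.18 for complement. They were -0.46, -0.44 and -0.44 without replicate 2, and -0.39, -0.44 and -0.33 without replicate 4. Most of the negative calls were lost in each of these omissions, so the loss was not particular to replicate 3.

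In the clotting system, PLG, the precursor of the fibrin-degrading plasmin, had -0.19, -0.78, -2.04 and -1.15, with a mean of -1.04 ± 0.27 (limma adjusted p = 0.035). FGB had -1.10 ± 0.30, with -3.06 on replicate 3 and 0.04 on replicate 4. A2M, an inhibitor of many proteases, had -0.62, -0.73, -1.80 and -0.80 with a mean of -0.99 ± 0.25, and the means of its 4 spots lay between -1.38 and -0.60. VTN, vitronectin, had -0.86 ± 0.18. KNG1, the kininogen that carries bradykinin, was the 1 called gene among the 4 positive members of the list. It had 0.35, 0.41, 0.61 and 0.37 and a mean of 0.44 ± 0.09 (limma adjusted p = 0.014).

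Among the carriers, ORM1, an acute phase glycoprotein that binds drugs and steroids, had -1.03, -0.92, -2.61 and -0.13 with a mean of -1.17 ± 0.30. ITIH2, a heavy chain of the inter-alpha-trypsin inhibitor, had -1.0 ± 0.26, GC, the carrier of vitamin D, -0.82 ± 0.19, and TTR, the thyroid hormone carrier transthyretin, -0.61 ± 0.17. SERPINF1 had -0.76, -0.36, -1.36 and -0.51, and its mean of -0.74 ± 0.10 had an adjusted p of 0.0021. Of its 6 spots 5 had negative means, down to -1.41, and 1 had 0.10. LECT2, a chemotactic protein secreted by hepatocytes, was the 1 positive call of the list, with 0.12, 0.44, 1.00 and 0.55 and a mean of 0.53 ± 0.12. ALB, albumin, had -0.52 ± 0.19, which did not pass (adjusted p = 0.13).

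In the complement system CFI, the protease that inactivates deposited C3b and C4b, had -0.58, -0.92, -1.85 and -1.59, with a mean of -1.24 ± 0.23 (limma adjusted p = 0.012). MASP1, a protease of the lectin pathway, had -0.45 ± 0.09, and C4 had -0.38 ± 0.10. CP had -0.61 ± 0.11, with -1.42 on replicate 3 and values from -0.36 to -0.33 on the other arrays. APOH, a phospholipid-binding glycoprotein of plasma, had -0.74, -1.26, -1.54 and -1.06, with a mean of -1.15 ± 0.22, and its 2 spots had -1.29 and -1.0. LCAT, which esterifies cholesterol on HDL, had -0.56 ± 0.11, from spots with -1.04 and -0.08.

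**Figure D3:**
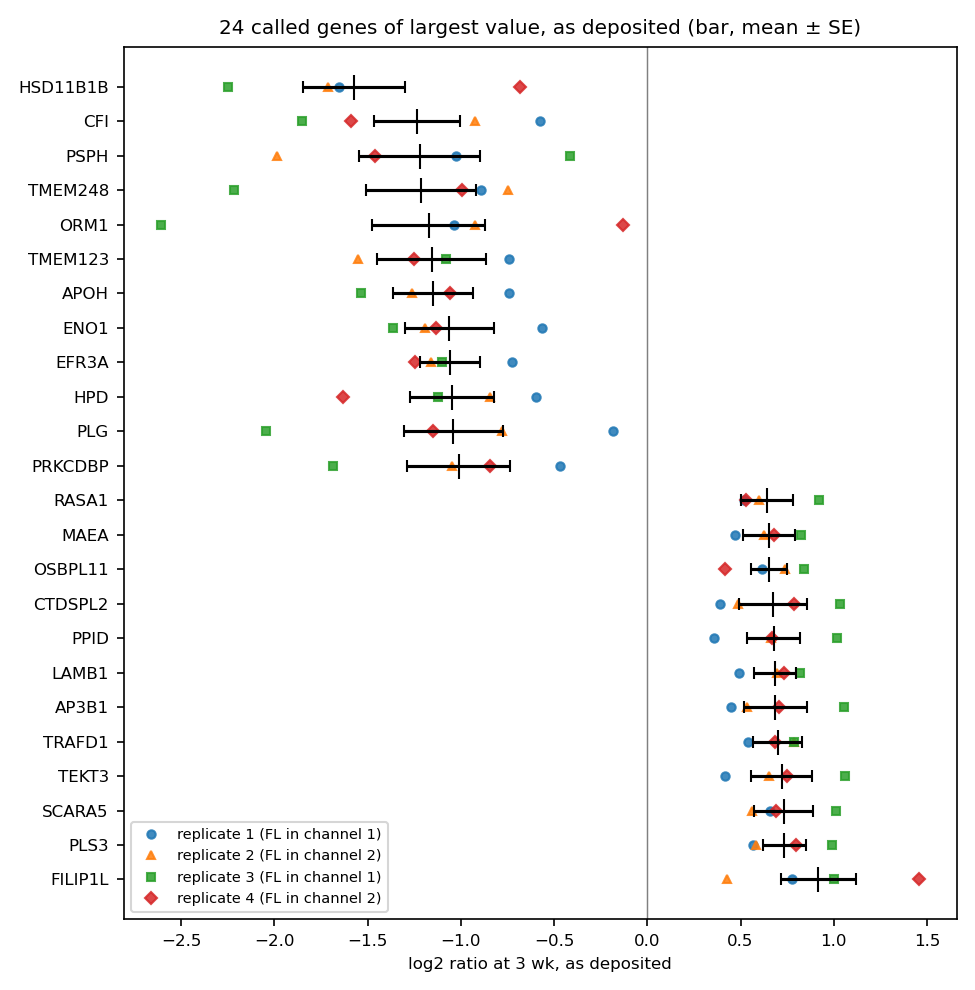
Deposited log2 ratios at 3 wk (x axis) of the 12 most negative and the 12 most positive called genes with a symbol and the same sign on 4 arrays (y axis), with a symbol for each array and a bar for the limma mean ± SE (n = 4). Replicate 3 lies farthest from 0 in most of them, and in log2 units these negative genes spread more widely between arrays than these positive ones.

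Enzymes of amino acid metabolism followed, with 25 of 36 genes negative, a median of -0.24 and 4 called, all negative. Positive were 30.6% of the list and 53.7% of all features, and called 11.1% and 5.32%. PSPH and PHGDH, the last and the first enzyme of serine synthesis, had -1.22 ± 0.32 and -0.71 ± 0.13, and both were negative on 4 of 4 arrays. HPD of tyrosine breakdown had -0.60, -0.84, -1.12 and -1.63, with a mean of -1.05 ± 0.23 (limma adjusted p = 0.018). ADSL of purine synthesis had -0.75 ± 0.18, from 1 spot with -1.41 and another with -0.08. Without replicates 2, 3 or 4 none of the 4 calls was kept in this list, and its median lay between -0.26 and -0.17.

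In glucose metabolism, ENO1, enolase of glycolysis, had -1.06 ± 0.24 and PGM1, which interconverts the glucose phosphates, -0.28 ± 0.06, while PKLR, the pyruvate kinase of liver, was positive on 4 of 4 arrays with 0.17, 0.30, 0.66 and 0.46 and a mean of 0.40 ± 0.09 (adjusted p = 0.025). Of 46 genes of xenobiotic metabolism and antioxidant defence 39 were negative, with a median of -0.14. Positive were 15.2% of them, against 53.7% of all features. The calls in this list were 6 (13%, against 5.32% of all features). They included SOD1, the cytosolic superoxide dismutase, with -0.47, -0.54, -0.87 and -0.86 and a mean of -0.69 ± 0.08 (adjusted p = 0.0013). GSTA3, a glutathione transferase, had -0.90 ± 0.20, CYP2C23a, a cytochrome P450 induced by phenobarbital in chicken, -0.82 ± 0.21, and ALDH8A1, an aldehyde dehydrogenase, -0.58 ± 0.12. The 2 spots of CYP2C23a differed, with means of -1.58 and -0.05. GSTA3 was at 0.01 on replicate 3, where most negative genes were lowest.

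Of 44 cytosolic ribosomal protein genes 30 were negative, with a median of -0.07, and 8 were called (18.2%), all negative. RPL13 had -0.73, -0.36, -0.74 and -0.80 with a mean of -0.66 ± 0.09, and RPL3, RPL17 and RPL24 had means of -0.66, -0.59 and -0.59. In other lists of basic cell functions the share called was near the 5.32% of all features, with 3 of 36 chaperone genes (8.33%), 2 of 39 of the respiratory chain (5.13%) and 1 of 31 of the proteasome (3.23%), all negative. ATP5C1 of ATP synthase had -0.55 ± 0.13, CCT8, a subunit of the chaperonin that folds actin and tubulin, -0.53 ± 0.15, DNAJA1, a cochaperone, -0.35 ± 0.09, ERN1, a sensor of unfolded proteins, -0.83 ± 0.15, and PSMD2 of the proteasome -0.27 ± 0.06. The cell cycle gene CCND1 had -0.53 ± 0.10 and ACAA2 of fatty acid oxidation -0.58 ± 0.15. IGFALS, which holds insulin-like growth factors in plasma, had -0.76 ± 0.17, and IGFBP2, another of their binding proteins, was positive with 0.35 ± 0.09. Among genes outside the lists TMEM248, TMEM123, EFR3A and PRKCDBP had means from -1.21 to -1.01.

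The positive calls had medians of 0.25, 0.30, 0.54 and 0.39 on replicates 1 to 4, and the negative calls -0.42, -0.43, -0.62 and -0.57. Replicate 3 held the largest value in 339 of 444 positive and in 174 of 347 negative calls. FILIP1L, a regulator of cell migration, had 0.78, 0.43, 1.00 and 1.46, with a mean of 0.92 ± 0.20 (limma adjusted p = 0.02). PLS3, plastin 3, which bundles actin, had 0.57, 0.58, 0.99 and 0.80, with a mean of 0.73 ± 0.11 (adjusted p = 0.0062). SCARA5, a receptor for ferritin, had 0.73 ± 0.16, and LAMB1, a laminin chain of basement membranes, 0.49, 0.70, 0.82 and 0.73 with a mean of 0.69 ± 0.11. Of the extracellular matrix list 24 of 38 genes were positive (63.2%, against 53.7% of all features) with a median of 0.03, and 3 were called (7.89%, against 5.32% of all features), namely LAMB1, FBN1, fibrillin (0.33 ± 0.08), and ELN, elastin (0.20 ± 0.05). AP3B1 of a vesicle adaptor, OSBPL11, an oxysterol-binding-like protein, RASA1, which switches off Ras, PPID, a cyclophilin, MAEA of a ubiquitin ligase, TRAFD1, which dampens innate signalling, TEKT3, a tektin of cilia, and CTDSPL2, a phosphatase-like protein, had means from 0.64 to 0.72. All 12 of the most positive genes were at 0.36 or above on every array.

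Genes of lipid synthesis were not among the calls as deposited. Of 16 genes of fatty acid synthesis 7 were positive with a median of -0.07, and 0 were called, against 5.32% of all features. At that share a list of this size would hold few calls, so the 0 says little about lipid synthesis. With arrays centred 1 of 10 glycerolipid genes was called, with a positive value. FASN had 0.14, -0.04, -0.63 and -0.75, with a mean of -0.32 ± 0.24 and an adjusted p of 0.46 in limma, and ACACA had 0.20, -0.30, -0.48 and -0.89, with -0.37 ± 0.19. PNPLA3 had 0.16 ± 0.07, DGAT2 0.23 ± 0.07 and NSDHL of cholesterol synthesis 0.33 ± 0.13. APOB, the structural protein of exported lipoproteins, had -0.69 ± 0.22 (adjusted p = 0.072). NR1H4 had -0.25 ± 0.12, TAP1, which loads peptides on class I molecules, -0.26 ± 0.08, and CRY1 of the clock -0.16 ± 0.08, and they did not pass either.

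Markers of cell types other than hepatocytes had medians of either sign as deposited. The 5 measured markers of stellate cells and fibroblasts, all matrix genes, had a median of -0.14 with a range from -0.39 to 0.38, and 0 of them were called. Of 12 skeletal muscle genes 10 were positive (83.3%, against 53.7% of all features) with a median of 0.18. The 1 call (8.33%, against 5.32% of all features) was DES, desmin, with 0.17 ± 0.05, from spots with 0.38 and -0.04. It was lost whichever single array was left out. Of 7 adipocyte genes 6 were positive (85.7%) with a median of 0.15 and 0 calls. Of 14 endothelial genes 7 were positive (50%) with a median of 0.00 and 0 calls, and VWF had 0.24 ± 0.07. CA2, the carbonic anhydrase of erythrocytes, had 0.40 ± 0.10 and UROD of haem synthesis -0.25 ± 0.06. They were the 2 called of 11 erythrocyte genes (18.2%, against 5.32% of all features). CYBB of the phagocyte oxidase was the 1 called gene of antigen presentation and macrophages (4.17% of the list), with -0.61 ± 0.17. KRT7 of bile duct had 0.14 ± 0.07, JCHAIN of plasma cells 0.12 ± 0.11, CPA1 of pancreas 0.27 ± 0.08 and the W-linked HINTW 0.31 ± 0.09 (limma adjusted p = 0.051), and none of the 4 passed. CPA1 was the highest of 6 pancreas genes, of which 2 were positive and 4 negative, with a median of -0.02. The hepatocyte markers ALB, APOA1, APOB, FGB and TTR were all negative, between -1.10 and -0.29, with 2 of 5 called. The part of cell composition in these values was not tested.

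**Figure D4:**
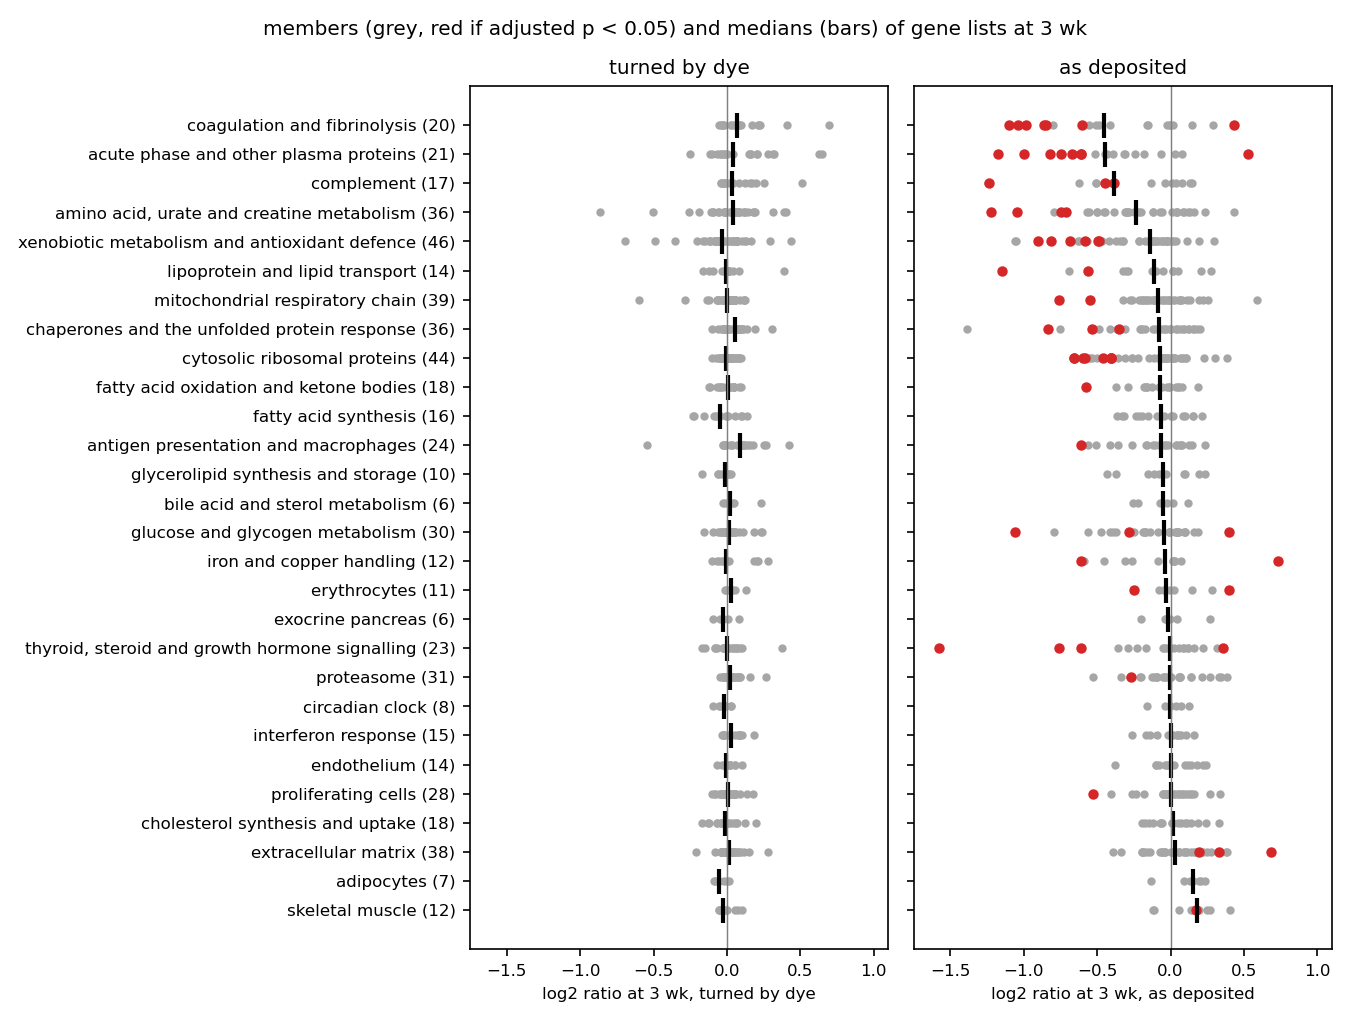
Log2 ratios at 3 wk (x axis) of the measured members of each gene list with at least 6 of them (y axis, number of members in brackets), turned by dye on the left and as deposited on the right, where grey points are members, red points members with a limma adjusted p under 0.05 and black bars medians. The left panel has 0 called members, and the right panel has its lowest medians, -0.45, -0.45 and -0.39, in the 3 lists of plasma proteins.

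Whether 3 wk differed from the other ages was tested against the mean of 1, 5, 7, 9 and 11 wk. That mean includes 7 wk replicate 1, a column that was not centred, with a median of 0.33 over spots. Over all features the median turned ratio at 7 wk was -0.08, and 59.3% of the turned differences were positive. The differences below were not corrected for this offset. Turned by dye 0 features (0%) were called in limma and 183 (1.23%) had an unadjusted p under 0.05, with 0.313 as the smallest adjusted p. GNLY had the smallest p of the named genes, with a difference of 0.55 ± 0.10 (SE, n = 4 arrays against 20, unadjusted p = 9.5e-05, adjusted p = 0.704). Its turned ratios from 1 to 11 wk were -0.00, 0.44, -0.07, -0.19, -0.18 and -0.10, so that 3 wk was the 1 age with a positive value. CD74 had 0.04, 0.42, 0.06, 0.05, -0.24 and -0.15, a difference of 0.47 ± 0.12. FURIN had 0.09, 0.64, 0.25, 0.01, -0.44 and -0.22, a difference of 0.70 ± 0.19. ARPC4 of the actin-nucleating Arp2/3 complex and SEBOX, a homeobox gene, had differences of 0.26 ± 0.07 and 0.83 ± 0.25. Across features the turned ratios of 3 wk correlated with those of the other ages at r = 0.18, 0.19, 0.11, -0.19 and 0.01 for 1, 5, 7, 9 and 11 wk. None of the 5 named differences passed the correction.

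As deposited, the profile of 3 wk was shared with the other ages. Across features it correlated at r = 0.26 with 1 wk and at 0.68, 0.69, 0.67 and 0.66 with 5, 7, 9 and 11 wk, where features are not independent replicates and share the cDNA spots. Of the 791 features called at 3 wk 784 had the same sign in the mean of the other ages. The share with the same sign over all features was not counted, so whether the called ones stand out cannot be told. Over all features, the called ones included, the values of 3 wk correlated with that mean at r = 0.79. The median of the called features was 0.37 at 3 wk and 0.21 at the other ages for positive features, and -0.52 and -0.30 for negative ones, values that their choice at 3 wk favours. The test of 3 wk against the other ages called 0 features (0%), and 765 (5.15%) had an unadjusted p under 0.05, with 0.131 as the smallest adjusted p. RPL31 of the ribosome had the smallest p of the named genes, with 0.01, 0.01, -0.14, -0.36, -1.20 and -0.91 from 1 to 11 wk and a difference of 0.53 ± 0.10. NRBF2, an autophagy factor (0.53 ± 0.11), MRPL46 of the mitochondrial ribosome (0.28 ± 0.06) and TRIM105 (0.41 ± 0.09) also had positive differences. SERPINF1 had 0.01, -0.74, -0.27, -0.11, -0.44 and -0.49, a difference of -0.48 ± 0.11 with an adjusted p of 0.483.

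**Figure D5:**
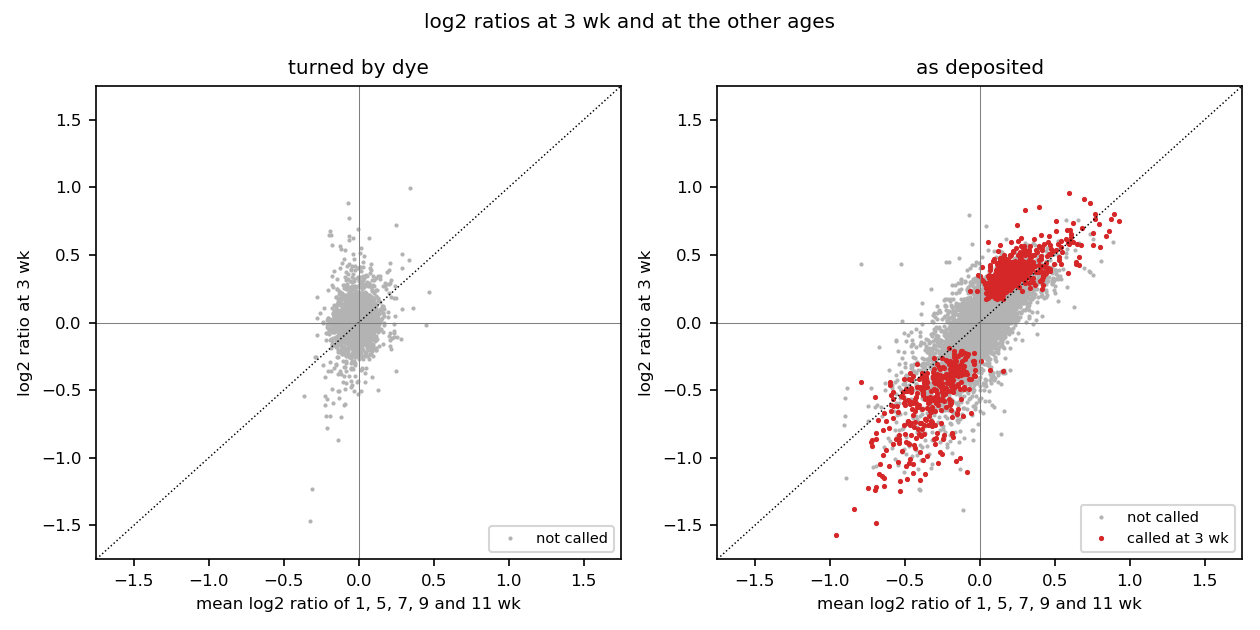
Log2 ratio at 3 wk (y axis) against the mean log2 ratio of the 5 other ages (x axis) for 14855 features, turned by dye on the left and as deposited on the right, with features called at 3 wk in red and equality as a dotted line. Turned values form a cloud around 0 (r = 0.12) with 0 called features, and deposited values lie along the diagonal (r = 0.79).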

How the data were processed

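Log2 ratios of two-colour cDNA arrays were taken from the value table the authors deposited, in which 19200 spots had been normalized before deposit. The normalization, the log base (taken as 2) and the direction of the ratio are not given in the sources used here. The paper supplied for style described another data set. Symbols came from the platform annotation (10601 spots), of which 10455 were updated through RefSeq by Entrez ID. The 123 spots of 2 accessions repeated on more than 20 spots were left out, spots of a gene were averaged, and features with at least 3 of 4 values at each age were kept. All 24 arrays entered a limma fit (version 3.58.1, R 4.3.3) with a line term and a common term for each age, so that the spread was shared between ages. Two-sided p-values were adjusted by Benjamini and Hochberg over all 14855 features, with 0.05 as the threshold. The labels describe the birds as biological replicates. The model was tested on simulated data with 200 changed features. Alternatives were the 3 wk arrays alone, other terms, a replicate block, centring, scaling, array weights, robust variances, single spots, complete features and omitted arrays.

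Members and gene lists were chosen with earlier results of these data known. Named were, in each reading, the 12 called genes of largest value in each direction with 1 sign on 4 arrays, or the 10 of smallest p (5 against the other ages), and in every list the 4 called members of largest value per direction, or the 1 of smallest p where none was called. Genes of lipid synthesis and export, ALB, BF1, B2M, C1QC and CSF1R were added for their known roles. The unnamed spot and the genes called without single arrays were chosen after their values were seen.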

Additional observations from a re-analysis of the deposited data

Results flagged for a closer look

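In 6 of 114 named values 1 of the 4 arrays lay far from the other 3, where chance gives about 1 in 20, and in each of them that array was replicate 3, the array with the widest spread. Turned by dye, RRM2 had 0.26 on replicate 3 and from 0.09 to 0.11 on the others. As deposited, TMEM248 had -2.22 on replicate 3 against -0.99 to -0.75 on the others, A2M had -1.80 against -0.80 to -0.62, and CP had -1.42 against -0.36 to -0.33. NSDHL had 0.54 on replicate 3 against 0.25 to 0.28, and JCHAIN had 0.30 against 0.05 to 0.07.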

How the results depend on the processing

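Turned by dye the count stayed at 0 under all alternatives that kept the 24 arrays, while 1 unnamed spot was called without the 3 arrays of other ages that stood apart (adjusted p = 0.029), also against the other ages. Fitted values without an array give the lone array of its dye orientation as much weight as the 2 others. Without single 3 wk arrays between 1 and 5 features were called turned, among them FURIN (1.05, adjusted p = 0.0016) and CP (0.55, 0.026) without replicate 1 and ATP5B (-1.25, 0.0012) without replicate 3, and between 1 and 3 against the other ages. As deposited the 791 calls became 1321 with arrays centred, 1858 with arrays also scaled, 2781 with array weights, 2376 without the 3 arrays that stood apart, 638 with the 3 wk arrays fitted alone (360 of the 791 among them) and from 13 to 962 without single 3 wk arrays. Against the other ages the 0 calls as deposited became 3 with centring, 1 with scaling, 4 with array weights and from 0 to 16 without single arrays. The cause of these changes was not tested.

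With the replicate number as a block 0 features were called turned and 644 as deposited, of which 616 were among the 791, and 0 in both contrasts with the other ages. The numbers did not pair the arrays, since deviations of same-numbered arrays correlated from -0.52 to 0.27 over 30 pairs of ages. Some turned values that were not called with all arrays changed sign when single 3 wk arrays were left out. In those fits ABCA1 ranged from -0.00053 to 0.17, ATP5B from -1.25 to 0.046 and SPP1 from -0.027 to 0.068. PPARG ranged from -0.17 to 0.0059, HINTW from -0.12 to 0.059 and RPL35 from -0.19 to 0.036. As deposited 8, 52, 62 and 60 named genes lost their call without replicates 1, 2, 3 and 4, and 10 with the block. No 3 wk column correlated under -0.3 with the other of its orientation, so no column was given the opposite sign. The 4 arrays and the spread shared with other ages limit the precision.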
